A study of Mus musculus with 8 samples.

Results

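Neurons that release peptides and amines store them in large dense-core vesicles. This report describes 10 genes whose products build that cargo or process it: the granins *Chga*, *Chgb*, *Scg2* and *Scg3*, the convertase chaperone *Scg5*, the prohormone convertases *Pcsk1* and *Pcsk2*, the convertase inhibitor *Pcsk1n*, and the trimming and amidating enzymes *Cpe* and *Pam*. They were listed by symbol for their role in this pathway, and their rows were read from the E11.5 and E14.5 expression tables. All 10 were found among the 13413 genes of the E14.5 table. At E11.5, 9 were found among 13506 genes, and *Pcsk1* was not listed, in a table where every gene reached at least 1 FPKM (fragments per kilobase of transcript, scaled to all mapped fragments) in 1 genotype or the other.

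The values came from dissected mouse sympathetic ganglia, with 2 libraries per group and RNA pooled from about 10 embryos of a genotype. At E11.5 the mutant (labelled Isl1-/-) was an *Isl1* conditional knockout, *Wnt1-Cre;Isl1 f/f* (CKO). Its control (labelled wild type) was *Wnt1-Cre;Isl1+/+*, and both carried a *Rosa26-tdTomato* reporter. *Wnt1-Cre* recombines in neural crest cells, so neurons and glia of the ganglion both lose the gene, whereas vessels and blood do not. At E14.5 the mutant (labelled Isl1 mutation) was homozygous for the *Isl1* f-neo allele, a hypomorph that lowers *Isl1* in all cells, and was compared with wildtype embryos. The authors combined the 2 libraries of a group into 1 FPKM value. Read numbers and single libraries were not analysed here, so depth, spread between libraries and intervals are unknown, and no difference below was tested. *Isl1* itself (chromosome 13, 117088478 to 117099896 in mm9) stood at 133 FPKM in controls against 40.0 in CKO ganglia, and at 162 in wildtype against 83.1 in hypomorphic ganglia. Transcript thus remained in both mutants.

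Granins are acidic proteins of the secretory pathway that aggregate in the trans-Golgi network and help to form dense-core vesicles. Within the vesicle, the convertases PC1/3 (*Pcsk1*) and PC2 (*Pcsk2*) cut prohormones and granins after pairs of basic residues. Carboxypeptidase E (*Cpe*) then removes the exposed basic residues, and peptidylglycine alpha-amidating monooxygenase (*Pam*) amidates the C-terminus. The protein 7B2 (*Scg5*) is needed for PC2 to mature, and proSAAS (*Pcsk1n*) inhibits PC1/3. In sympathetic neurons and adrenal chromaffin cells, chromogranin A is a classical constituent of the catecholamine vesicle.

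The ganglia held the markers of sympathetic neurons in every group. All 12 genes of a sympathetic neuron list were present, and *Dbh*, the enzyme that makes noradrenaline inside the vesicle, had 543, 594, 608 and 568 FPKM in E11.5 control, E11.5 CKO, E14.5 wildtype and E14.5 hypomorphic ganglia. *Dbh* does not stand for its list, since in CKO ganglia it was the 1 gene above control and 11 lay below. *Pnmt*, the adrenaline-synthesizing enzyme that defines adrenergic chromaffin cells, had 1.29, 0.949, 5.04 and 3.70 FPKM in the same order. Of the summed FPKM, erythroid genes took 2.29% in E11.5 controls, 11.2% in CKO, 1.26% in E14.5 wildtype and 1.56% in hypomorphic ganglia.

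Levels of the 10 genes spanned more than 2 orders of magnitude at E14.5. In wildtype ganglia *Chga* and *Chgb* were at the top and the convertases at the bottom. In hypomorphic ganglia *Cpe* (239 FPKM) and *Pcsk1n* (218) stood above *Chgb* (169). In E14.5 wildtype ganglia the order was *Chga* (352 FPKM), *Chgb* (314), *Cpe* (249), *Pcsk1n* (233), *Scg5* (129), *Scg3* (127), *Pam* (61.8), *Scg2* (10.3), *Pcsk2* (6.26) and *Pcsk1* (1.19). FPKM is a value per transcript length, which allows levels of different genes to be set side by side. Whether neighbours in this order, such as *Scg5* and *Scg3*, differ beyond the spread between libraries is not known. *Chga* held rank 134 and *Chgb* rank 149 among 13413 genes, while *Pcsk1* held rank 12902. In E11.5 control ganglia *Chga* led as well, at 164 FPKM, followed by *Pcsk1n* (149), *Cpe* (131), *Scg3* (94.5), *Chgb* (69.5), *Pam* (66.9), *Scg5* (25.5), *Scg2* (7.73) and *Pcsk2* (3.0). *Chgb* therefore stood in the fifth place in E11.5 control and in the second in E14.5 wildtype ganglia.

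**Figure D1:**
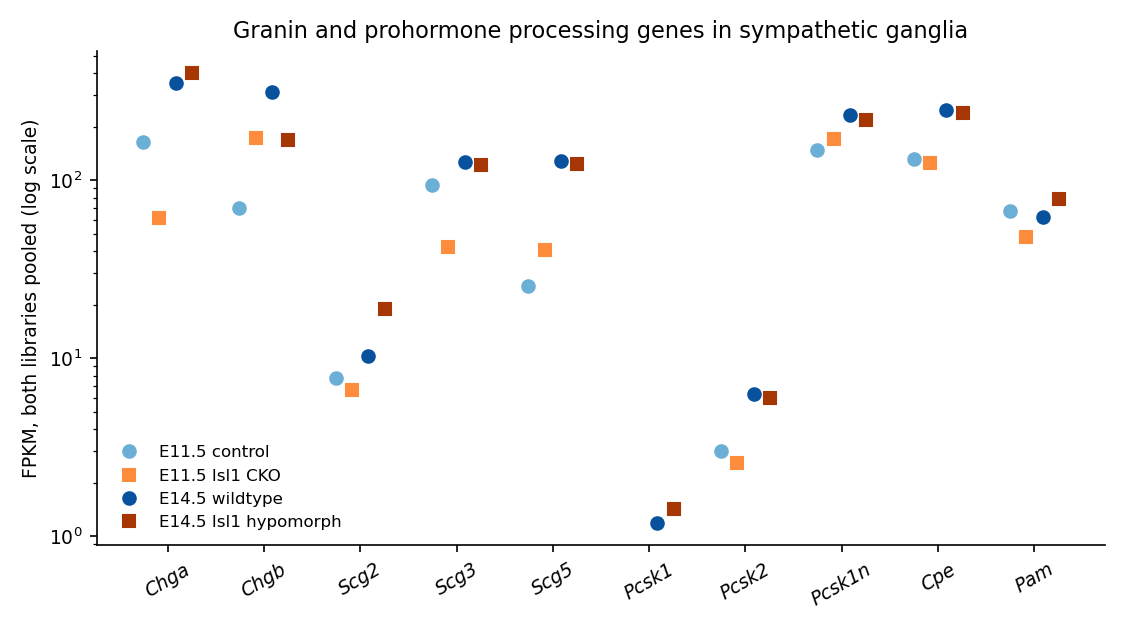
FPKM (log scale) of each of the 10 genes in E11.5 control, E11.5 CKO, E14.5 wildtype and E14.5 hypomorphic ganglia, 1 point per group, each the authors' value over 2 libraries. *Chgb* has its lowest value, 69.5 FPKM, in E11.5 control and its highest, 314, in E14.5 wildtype ganglia, with both mutants between them, and *Pcsk1* has no point at E11.5 because it was not listed there.

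The first bases upstream of these genes were inspected because chromogranin and secretogranin promoters are textbook targets of the cAMP response element, the octamer bound by CREB. Of the 10 genes, 9 had a RefSeq promoter (250 bases before to 50 after the annotated start, *Cpe* excepted), and 4 of them held TGACGTCA, which reads the same on both strands, or its variant TGACGTAA, searched on both strands. The former occurred in 1.79% and the latter in 0.499% of 32851 promoters of that length, and either in 2.28%. The 4 stretches are shown, 30 bases each and 5′ to 3′ on the gene's strand, to set *Chga* beside *Chgb*, the pair that differed most in the E11.5 CKO comparison. Capitals mark the octamer.
Chga: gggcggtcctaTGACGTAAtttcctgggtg
Chgb: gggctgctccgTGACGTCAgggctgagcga
Scg2: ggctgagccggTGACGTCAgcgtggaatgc
Pcsk1: ccaggtagatcTGACGTCAagagatggctt
The *Chga* stretch lies at chr12:103793096-103793125 on the plus strand of mm9, before the first base of the gene, and its octamer starts 44 bases before the RefSeq start. That of *Chgb* lies at chr2:132607295-132607324 on the plus strand. Its octamer starts 72 bases before the RefSeq start and lies within an exon of the GENCODE M1 model, which begins further upstream. The *Scg2* stretch lies at chr1:79436651-79436680 on the minus strand. Its octamer starts 68 bases before the RefSeq start and partly overlaps the first exon in GENCODE M1. The *Pcsk1* stretch lies at chr13:75227216-75227245 on the plus strand, and its octamer starts 78 bases before the RefSeq start, outside the gene model. *Chga* alone of the 4 carried the variant octamer. These matches describe the letters and no binding was measured here.

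In *Isl1* CKO ganglia at E11.5, the chromogranin genes differed in opposite directions. *Chga* (chromosome 12, 103793179 to 103803237 in mm9) stood at 164 FPKM in controls against 61.4 in mutants, which is 2.67-fold lower (log2 ratio -1.42). *Chgb* (chromosome 2, 132607014 to 132620815) stood at 69.5 FPKM in controls against 174 in mutants, which is 2.50-fold higher (log2 ratio 1.32). In rank, *Chga* stood at 431 in control and 1410 in CKO ganglia, whereas *Chgb* stood at 1166 and 456. *Chgb* was thus the most abundant of the 9 listed genes in CKO ganglia, and *Chga* the fourth. Log2 ratios throughout were computed on FPKM + 0.1, and in bulk ganglia fewer cells of a type and less RNA per cell cannot be told apart.

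*Scg3* (chromosome 9, 75491071 to 75531803), which binds chromogranin A to vesicle membranes, stood at 94.5 FPKM in controls against 42.4 in mutants (log2 ratio -1.16). *Scg5* (chromosome 2, 113616519 to 113669278) was higher, with 25.5 FPKM in controls against 40.4 in mutants (0.66). *Scg2*, the precursor of secretoneurin, was low in both, at 7.73 and 6.63 FPKM. Its log2 ratio of -0.22 lay between the quartiles of all genes, -0.31 and 0.45.

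The enzyme genes and *Pcsk1n* differed less than *Chga*, *Chgb* and *Scg3*. *Pam* (chromosome 1, 99691691 to 99992223) showed 66.9 FPKM in controls against 47.8 in mutants (log2 ratio -0.48). *Cpe* (chromosome 8, 67071355 to 67171837) showed 131 against 124 (-0.07). *Pcsk1n* (chromosome X, 7496948 to 7501536) showed 149 against 171 (0.20), and *Pcsk2* (chromosome 2, 143371892 to 143642021) 3.0 against 2.57 (-0.21). As deposited, none of the 4 reached 1.5-fold.

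Of the 9 genes, 2 (*Chga* and *Scg3*) lay 1.5-fold or more below control and 2 (*Chgb* and *Scg5*) as far above it. Among all 13504 genes compared, 12.9% were that much lower and 18.9% that much higher (31.8% in either direction), so these counts are near the background. The median log2 ratio of the 9 was -0.21, beside 0.05 over all genes. The widest gap within the group was between *Chga* and *Chgb*, whose log2 ratios differed by -2.74.

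The E11.5 ratios depend on the scaling. With both columns brought to the same sum without the erythroid genes, the median of all genes moved to -0.18, and the share of higher genes among those past 1.5-fold went from 59.4% to 35.3%. With centring on 20 pan-neuronal genes, whose median log2 ratio was -0.44, it went to 90.3%. Under all 4 scalings *Chga* (-1.65 to -0.98) and *Scg3* (-1.39 to -0.72) stayed 1.5-fold or more lower, and *Chgb* (1.09 to 1.76) that much higher. *Scg5* ran from 0.43 to 1.10 and was under 1.5-fold only without the erythroid genes. *Pam* ran from -0.72 without the erythroid genes, past 1.5-fold lower, to -0.044 centred on pan-neuronal genes. *Scg2*, *Pcsk2*, *Pcsk1n* and *Cpe* took either sign, and *Pcsk1n* was past 1.5-fold higher (0.64) with the pan-neuronal centring.

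Neuronal markers were lower in the same CKO libraries. Of 12 sympathetic neuron genes 6 were 1.5-fold or more lower and 0 higher (summed level 1970 FPKM in controls against 1570 in mutants, led by *Dbh* and *Hand2*), as were 7 of 20 pan-neuronal genes (5479 and 3908). Markers of other cells were higher. The glial and neural crest list, led by *Fabp7* and *Ednrb*, held 11 of 12 genes past 1.5-fold (352 and 780.6 FPKM). Past it too were 7 of 10 mesenchyme genes (781 and 1331), 9 of 10 macrophage genes (58.4 and 130.3), 2 of 8 endothelial genes (66.0 and 86.5) and 15 of the 16 erythroid genes measured of 20 (10913 and 69426). The erythroid gene that was lower, *Hbb-y*, had 7552 FPKM in controls and 0 in CKO ganglia, so the CKO sum holds nothing from it. The reason for this 0 was not tested. All 4 trophoblast and decidua genes in the table, of 12 listed, were higher (4.92 and 74.2 FPKM), led by *Prl8a2* at 48.4 FPKM in CKO ganglia. *Prl8a2*, *Prl7a1* and *Prl3b1* were below 1 FPKM in controls (0.241, 0.0304 and 0.226). They were listed only through CKO ganglia and could not have come out lower. Of 9 chromaffin genes other than granins 3 were at least 1.5-fold higher and 1 lower (243 and 359 FPKM), with *Pnmt* at 1.29 and 0.949. The higher ones were *Penk* (7.29 and 97.7), *Foxq1* (1.26 and 3.82) and *Htr3a* (0.838 and 3.23), the last listed only through CKO ganglia. The lower one was *Epas1* (31.5 and 14.4). Of 7 sensory neuron genes measured of 12, 4 were higher (37.3 and 39.1 FPKM). Among these, *Pou4f1* (0.676 FPKM in controls), *Neurog2* (0.212) and *Prdm12* (0.435) were likewise listed only through CKO ganglia. The part of these cells in the levels of *Chga*, *Chgb*, *Scg3* and *Scg5* was not tested. The paper separately reports replicated qPCR in CKO ganglia, with lower *Chga* and *Scg3* and higher *Chgb*. Its methods state that ganglia of this stage were digested and cell-sorted for qPCR.

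**Figure D2:**
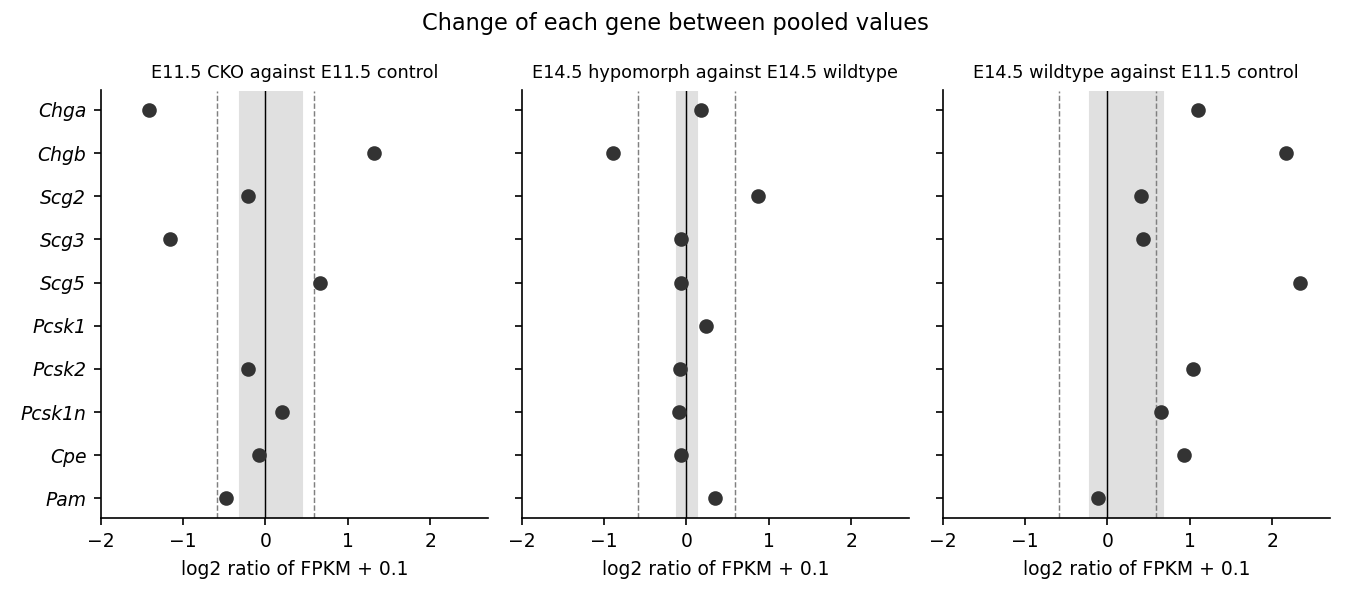
Log2 ratios of FPKM + 0.1 for each gene in CKO against control at E11.5, hypomorph against wildtype at E14.5, and E14.5 wildtype against E11.5 control ganglia. Grey bands run between the quartiles of all genes and dashed lines mark 1.5-fold. *Chga* and *Chgb* lie on opposite sides in the CKO panel (-1.42 and 1.32), *Chgb* and *Scg2* in the hypomorph panel (-0.89 and 0.87), and 8 of 9 genes lie above 0 in the stage panel.

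In *Isl1* hypomorphic ganglia at E14.5, *Chgb* and *Scg2* had the largest differences of the 10 genes, and the direction of *Chgb* was the opposite of that in the CKO. *Chgb* stood at 314 FPKM in wildtype against 169 in hypomorphic ganglia, which is 1.86-fold lower (log2 ratio -0.89), and its rank went from 149 to 342. *Scg2* (chromosome 1, 79431244 to 79436665) stood at 10.3 against 18.9 FPKM, which is 1.83-fold higher (0.87). *Chga* stood at 352 against 399.6 FPKM (0.18).

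The other genes lay near their wildtype levels. *Scg3* stood at 127 FPKM in wildtype and at 122 in mutant ganglia, *Scg5* 129 and 123, *Pcsk1n* 233 and 218, *Cpe* 249 and 239, and *Pcsk2* 6.26 and 5.94, with log2 ratios between -0.10 and -0.06. *Pam* had 61.8 and 78.7 FPKM (log2 ratio 0.35). *Pcsk1* (chromosome 13, 75227274 to 75269946), at 1.19 and 1.42 FPKM (0.24), was close to the lower limit of the table.

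Of the 10 genes, *Chgb* alone was past 1.5-fold below wildtype and *Scg2* alone above it, against 2.12% and 2.89% of the 13411 genes compared (5.0% in either direction). Their median log2 ratio was -0.06, and that of all genes 0.003. *Chgb* (-0.90 to -0.63) and *Scg2* (0.87 to 1.14) kept their side of 1.5-fold under all 4 scalings. *Scg3*, *Scg5*, *Pcsk2*, *Pcsk1n* and *Cpe* turned positive (0.17 to 0.21) when ratios were centred on the pan-neuronal genes, whose own median was -0.27, and *Pam* reached 0.61. That centring took the share of higher genes among all those past 1.5-fold from 57.7% to 89.5%. Among marker lists of other cells, 1 of 8 endothelial, 4 of 18 erythroid, 1 of 7 chromaffin and 1 of 5 sensory neuron genes measured were at least 1.5-fold higher, and none of the 12 glial, 10 mesenchyme, 10 macrophage or 2 trophoblast genes. Below that threshold, 11 of 12 glial (summed level 516 and 585 FPKM), 10 of 10 mesenchyme (1599 and 1782) and 10 of 10 macrophage genes (73.5 and 88.1) were nonetheless above their wildtype values. The summed levels went from 83.8 to 117 FPKM for the endothelial, from 5661 to 6885 for the erythroid and from 485 to 458 for the chromaffin list. The chromaffin gene was *Slc18a1*, the vesicular monoamine transporter of chromaffin cells, at 18.2 and 44.4 FPKM. Of the neuronal lists 1 of 12 sympathetic (3187 and 2810 FPKM) and 1 of 20 pan-neuronal genes (11564 and 10186) were lower. The part of these cells in the levels of *Chgb* and *Scg2* was not tested.

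*Chgb* was the only one of the 9 genes measured at both stages to pass 1.5-fold in both mutant comparisons, and it did so in opposite directions. Of 12727 genes measured at both stages, 52 (0.409%) were past 1.5-fold above control in CKO and past it below wildtype in hypomorphic ganglia. The reverse pattern was held by 110 genes (0.864%) and by none of the 9. The alleles, the cells that lose *Isl1* and the stages all differ between the comparisons and cannot be told apart. The opposition was not tested, since single libraries could not be compared.

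**Figure D3:**
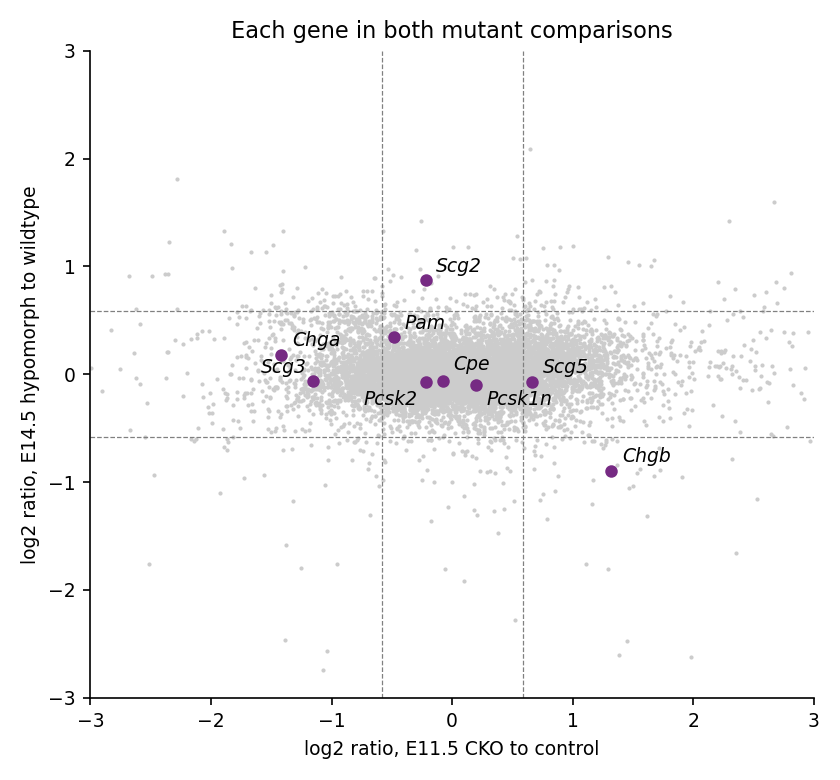
Log2 ratio of each gene in E11.5 CKO against control (horizontal) and in E14.5 hypomorph against wildtype ganglia (vertical), with all genes in grey, the 9 genes measured at both stages in purple and 1.5-fold as dashed lines. *Chgb* (1.32 and -0.89) sits in the lower right corner, *Chga* (-1.42 and 0.18) and *Scg3* to the left, *Scg2* above, *Scg5* (0.66 and -0.07) to the right of the centre, and the other 4 genes nearer to it. Of 12727 genes, 165 lie outside the axes.

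A ratio of 2 genes within 1 group does not move with the scaling of that group. *Chga* stood at 2.36 times *Chgb* in E11.5 control ganglia and at 0.353 times in CKO ganglia, a 6.66-fold lower ratio. It stood at 1.12 times *Chgb* in E14.5 wildtype and 2.36 times in hypomorphic ganglia, a 2.10-fold higher ratio. *Chga* exceeded *Chgb* in each group but the CKO.

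The makeup of granin transcripts restates these same values as shares. *Chgb* made up 20.7% of the summed FPKM of *Chga*, *Chgb*, *Scg2* and *Scg3* in E11.5 control ganglia, 61.2% in CKO, 39.1% in E14.5 wildtype and 23.8% in hypomorphic ganglia. *Chga* made up 48.8%, 21.6%, 43.8% and 56.3%. *Scg3* made up 28.2%, 14.9%, 15.8% and 17.2%, so its share was highest in E11.5 controls. Summed, the 4 genes came to 336 FPKM in E11.5 controls against 284 in mutants, and to 804 in E14.5 wildtype against 709 in hypomorphic ganglia.

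**Figure D4:**
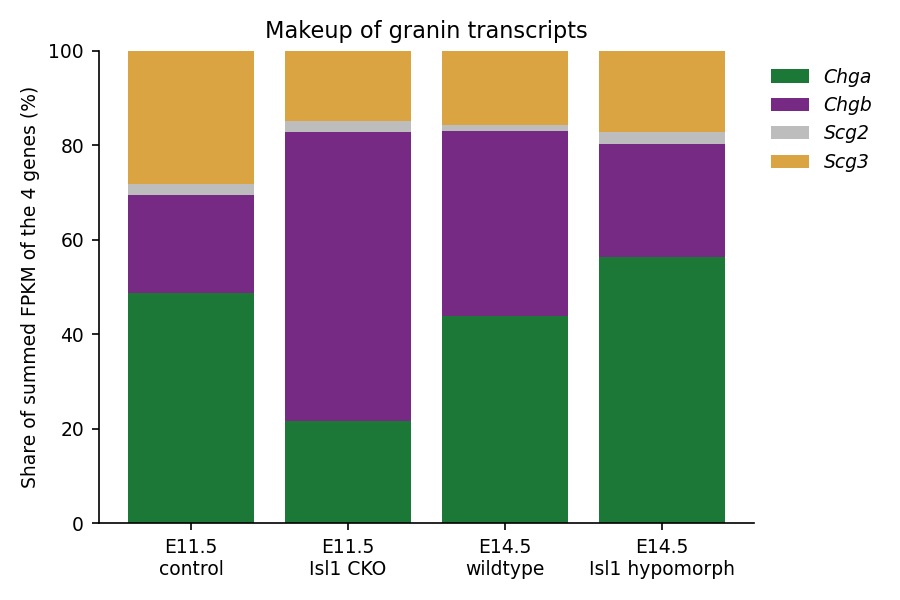
Share of *Chga*, *Chgb*, *Scg2* and *Scg3* in their summed FPKM (percent) in each of the 4 groups, 1 stacked bar per group. *Chgb* holds 61.2% in E11.5 CKO against 20.7% in control ganglia, and 23.8% in E14.5 hypomorphic against 39.1% in wildtype ganglia.

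Partners among the processing genes were compared in the same way. *Scg5*, whose product chaperones PC2, exceeded *Pcsk2* in every group, by 8.49 times in E11.5 control, 15.7 in CKO, 20.6 in E14.5 wildtype and 20.7 in hypomorphic ganglia. *Pcsk2* in turn had 5.26 times the FPKM of *Pcsk1* in wildtype and 4.18 times in hypomorphic ganglia. The inhibitor gene *Pcsk1n* exceeded *Pcsk1* by 195.6 times and 153 times, values that rest on about 1 FPKM of *Pcsk1*. The *Scg5* excess over *Pcsk2* was 1.84-fold larger in CKO than in control ganglia. Between the E14.5 genotypes none of these 3 ratios differed by as much as 1.5-fold.

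From E11.5 control to E14.5 wildtype ganglia, the levels of 8 of 9 genes were higher. *Scg5* went from 25.5 to 129 FPKM (log2 ratio 2.34, 5.05-fold) and *Chgb* from 69.5 to 314 (2.17, 4.51-fold). *Chga* went from 164 to 352 (1.10), *Pcsk2* from 3.0 to 6.26 (1.04), *Cpe* from 131 to 249 (0.93) and *Pcsk1n* from 149 to 233 (0.64). *Scg3* (94.5 to 127, log2 ratio 0.43) and *Scg2* (7.73 to 10.3, 0.40) were under 1.5-fold, and *Pam* was slightly lower at E14.5 (66.9 to 61.8, -0.11). *Pcsk1*, listed at 1.19 FPKM at E14.5, was not listed at E11.5. These levels come from tables that were normalized separately, and the E11.5 controls alone carried *Wnt1-Cre* and the reporter, so stage and these differences cannot be told apart.

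By count, 6 of 9 genes were 1.5-fold or more higher and 0 lower, where 29.7% of the 12666 genes compared were higher and 12.8% lower (42.5% in either direction). Their median log2 ratio was 0.93 and that of all genes 0.24. The direction of most of them turned on the reference. The 20 pan-neuronal genes had a median of 1.08, and centred on these, *Scg5* (1.25) and *Chgb* (1.09) were still over 1.5-fold higher, while *Chga* stood at 0.02, *Cpe* at -0.15, *Pcsk2* at -0.047 and *Pcsk1n* at -0.44. *Scg2* (-0.68), *Scg3* (-0.66) and *Pam* (-1.20) were over 1.5-fold lower on that scale. The share of higher genes among all those past 1.5-fold went from 69.9% as deposited to 49.6% after centring on all genes and to 5.89% after centring on the pan-neuronal genes. *Scg5* and *Chgb* were the genes of the 9 that stayed over 1.5-fold higher under all 4 scalings. This comparison shares its control samples with both mutant comparisons. Of the neuronal lists, 17 of 20 pan-neuronal (5479 and 11564 FPKM) and 8 of 12 sympathetic genes (1970 and 3187) were also higher at E14.5. So were 5 of 10 mesenchyme (781 and 1599), 2 of 12 glial (352 and 516), 4 of 7 chromaffin, 3 of 8 endothelial and 2 of 10 macrophage genes. Higher too were 2 of 5 sensory neuron and 4 of 15 erythroid genes. Lower were 2 mesenchyme, 2 glial, 6 erythroid and 1 sensory neuron gene, 1 of each neuronal list and the 1 trophoblast gene compared. The part of these cells was not tested.

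**Figure D5:**
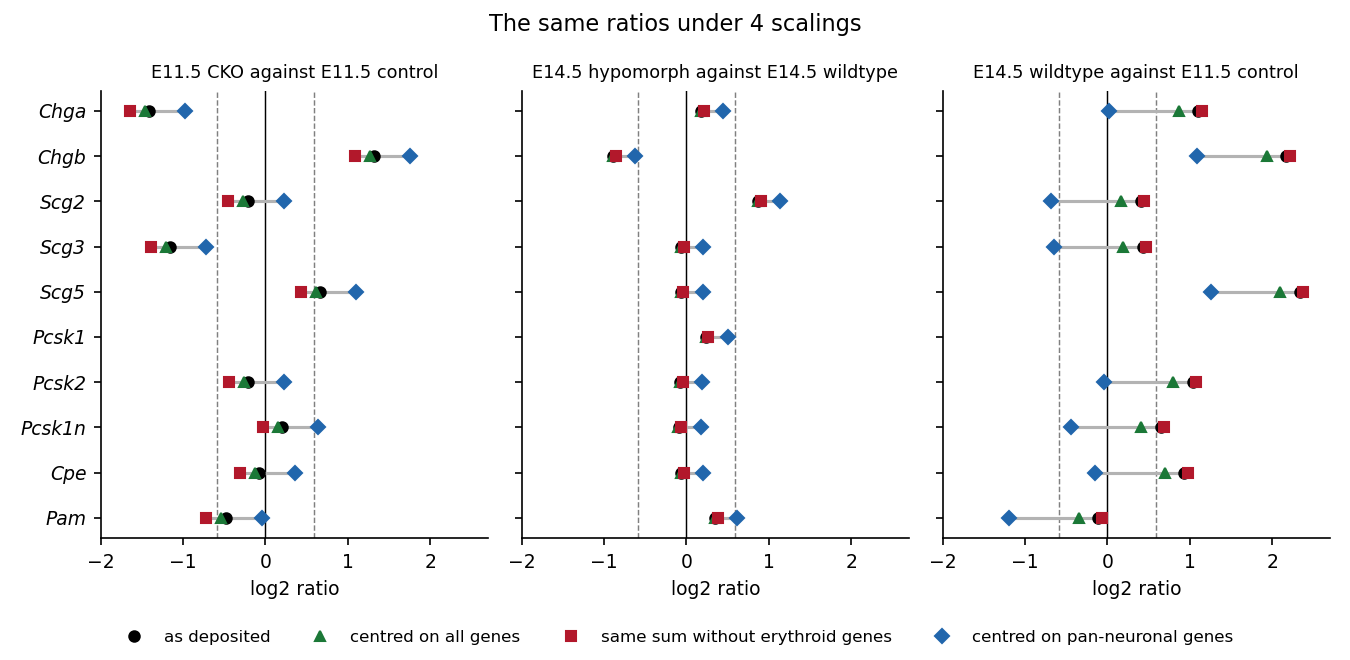
The log2 ratio of each gene under 4 scalings: as deposited, centred on the median of all genes, rescaled to the same sum without erythroid genes, and centred on 20 pan-neuronal genes. Dashed lines mark 1.5-fold and grey bars join the lowest and highest value. *Chgb* stays past 1.5-fold on 1 side in each panel (1.09 to 1.76, -0.90 to -0.63 and 1.09 to 2.22), whereas *Chga* in the stage panel runs from 0.02 to 1.15.

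The surrounding pathway was described by 3 lists. The first held 23 other processing enzymes, and 19 of these were measured at E11.5. In CKO ganglia 7 were at least 1.5-fold higher and 1 lower (median log2 ratio 0.21), against 18.9% and 12.9% of all genes. Of the 7, *Cpz* (0.986 and 2.62 FPKM) was listed only through CKO ganglia and could not have come out lower. The 7 became 3 without the erythroid genes and 10 centred on pan-neuronal genes. The lysosomal proteases *Ctsl* (66.7 and 186 FPKM) and *Ctsb* (43.8 and 96.3) and the carboxypeptidase-like *Cpxm1* (13.6 and 23.4) were higher, and the endopeptidase-like *Ecel1* was lower (9.91 and 3.74). Macrophages express both cathepsins, and 9 of 10 macrophage markers were higher in the same libraries, but their part in these values was not tested. *Furin*, the convertase of the constitutive pathway, had 10.0 and 8.24 FPKM, and *Cpd*, which trims its products, 23.6 and 23.3. At E14.5, 2 of 20 were lower in hypomorphic ganglia and 0 higher (2.12% and 2.89% of all genes), with *Ecel1* at 182 and 33.0 FPKM. Between the stages 5 of 19 were higher and 2 lower, near the 29.7% and 12.8% of all genes, among them *Ecel1* (9.91 to 182), *Ece1* (8.41 to 14.2), *Furin* (10.0 to 15.8) and *Mme*, which degrades peptides at the cell surface (5.56 to 1.85). *Cpz* (0.986 to 3.03) was among the 5 and again could not have come out lower. Centred on pan-neuronal genes these stage counts became 1 higher and 10 lower, with *Ece1* and *Furin* turning negative, and the hypomorph counts 3 higher and 1 lower.

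The second list held 31 genes of granule cargo, membrane, transport and release, some of which (*Snap25*, *Syt1*, *Dbh*, *Slc18a1*) also stand in the neuronal or chromaffin lists. In CKO ganglia 10 of 30 were at least 1.5-fold lower and 5 higher (median -0.21), beside 12.9% and 18.9% of all genes. The fusion protein gene *Snap25* (104 and 37.2 FPKM), *Sytl4*, which tethers granules through RAB27 (234 and 84.9), and the calcium sensor gene *Syt7* (6.12 and 2.49) were lower. *Resp18*, a granule protein gene, was higher (42.7 and 103). Of the higher genes, *Cadps2* and *Sytl5* (0.645 and 0.402 FPKM in controls) were listed only through CKO ganglia. Of the lower genes, *Rph3a* (0.0597 in CKO) was listed only through controls. In hypomorphic ganglia 2 of 28 were lower, *Syt1* (71.0 and 40.8) and *Rph3a* (11.1 and 6.58), and 2 higher, the larger being *Slc18a1*, beside 2.12% and 2.89% of all genes. From E11.5 control to E14.5 wildtype 22 of 28 were at least 1.5-fold higher and 0 lower (median 1.02), beside 29.7% and 12.8% of all genes. The steepest were *Rph3a* (1.36 to 11.1), *Rab3a* (22.5 to 84.6), *Unc13a* (5.93 to 21.1) and *Syt7* (6.12 to 21.2). Centred on the pan-neuronal genes, the counts turned to 6 lower and 10 higher in CKO ganglia, 0 lower and 6 higher in hypomorphic ganglia, and 6 lower and 5 higher between stages.

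The third list held 33 prohormones, the substrates of the convertases, of which *Penk* and *Adm* also stand in the chromaffin list. In CKO ganglia 11 of 19 measured were at least 1.5-fold higher and 2 lower (median 0.94), beside 18.9% and 12.9% of all genes. The 2 lower genes were *Vip* (26.9 FPKM in controls and 7.18 in CKO ganglia) and *Npy* (123 and 81.6). The steepest of the higher genes were *Nppa* (0.0765 and 12.0 FPKM), *Pnoc* (0.323 and 16.7), *Pyy* (1.49 and 29.4) and the proenkephalin gene *Penk* (7.29 and 97.7). All of these were low in control ganglia. *Nppa*, *Pnoc*, *Pthlh* (0.376 and 1.14) and *Nts* (0.831 and 1.03) were listed only because CKO ganglia reached 1 FPKM. They could not have come out lower. All of them but *Nts*, which was under 1.5-fold, are in the count of higher genes, so that limit partly sets the count. These libraries also held the higher blood, trophoblast and mesenchyme values given above, and the part of such cells was not tested. By qPCR, the paper also reports a higher level of *Pyy* and a lower level of *Vip* in CKO ganglia. In hypomorphic ganglia 4 of 18 were higher and 1 lower, beside 2.89% and 2.12% of all genes. Higher were *Vip* (18.0 and 45.3), *Sst* (74.9 and 151) and *Cartpt* (200.5 and 320.2), and *Pthlh* was lower (6.88 and 1.05). With stage, 10 of 13 were higher and 1 lower (29.7% and 12.8% of all genes), including *Gal* (4.24 to 45.9), *Npy* (123 to 395) and *Pthlh* (0.376 to 6.88), and *Cartpt* was lower (638 to 200.5). *Pthlh* and *Pnoc* (0.323 to 1.48) were compared only because E14.5 wildtype ganglia reached 1 FPKM. These 2 could not have come out lower. Prohormones listed at only 1 of the stages were left out of the stage counts. Centred on pan-neuronal genes the stage counts became 4 higher and 3 lower.

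Finally, the genes most like *Chga*, *Chgb* and *Scg2* were sought by the distance between their 3 log2 ratios, over the 4 pooled values of 8722 other genes that reached 10 FPKM in at least 1 group. Closest to *Chga* were *Islr2* (distance 0.24), *Stmn4* (0.28) and *LOC102636514* (0.29). Closest to *Chgb* were *Chodl* (0.27), *Olfm2* (0.31) and *Mir8116* (0.32). *Chodl* had 4.18, 9.55, 16.6 and 8.37 FPKM in E11.5 control, E11.5 CKO, E14.5 wildtype and E14.5 hypomorphic ganglia. It was picked by these same ratios, so its sharing the directions of *Chgb* follows from the search. Closest to *Scg2* were *Plxna2* (0.31), *Prkce* (0.34) and *1190002F15Rik* (0.41). With 4 pooled values per gene and no spread between libraries, these likenesses are descriptions.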

How the data were processed

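PolyA RNA of the pooled ganglia was sequenced with paired-end reads. The authors aligned the reads with TopHat to mm9 and estimated expression with cuffdiff. The submitters' processing notes name TopHat 1.3.1, Cuffdiff 1.3.0 and a fly genome build, and the paper's methods name mm9 and later versions. The deposited FPKM values combine the 2 libraries of a genotype, with 1 table per stage. The tables also hold the authors' own fold changes and p-values, which were not used.

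Log2 ratios were computed here on FPKM + 0.1 over genes reaching 1 FPKM in a compared group, symbols listed more than once left out, and 1.5-fold (0.58 on the log2 scale) was counted. The pseudocount understates the change of low genes. In the mutant comparisons a gene below 1 FPKM in 1 genotype was listed only if the other reached it, which fixed its direction. Between stages, a gene below 1 FPKM in 1 of the 2 groups was likewise compared only if the other reached it. The counts include such genes. With pooled values no test was possible, and the steps were checked on simulated data. Named genes were the 10 members, *Isl1*, up to 4 genes per pathway list and comparison with the largest ratio past 1.5-fold at 5 FPKM or more, the 3 nearest in pattern, and the 2 most abundant genes of marker lists with a median past 0.58. *Dbh*, *Pnmt*, *Cpd*, the genes given to show a limit of a count, and *Furin*, *Vip* and *Npy* in CKO ganglia were named after their values were seen. The result of 1 marker list is not reported here. The members and lists were chosen with earlier results of these data known. Coordinates are from GENCODE M1 (mm9), and promoter sequences are from RefSeq (GRCm38.p6), placed on mm9 by exact match. Python 3.11.15, numpy 2.4.6, pandas 2.3.3 and matplotlib 3.10.9 were used. The alternatives were pseudocounts of 1 and 0.01, no filter or 5 FPKM, folds of 2 and 1.2, and 3 other scalings.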

Additional observations from a re-analysis of the deposited data

How the results depend on the processing

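The counts of 2 lower and 2 higher genes in CKO ganglia became 2 and 1 at a threshold of 2-fold, 3 (with *Pam*) and 1 without erythroid genes, and 2 and 3 (with *Pcsk1n*) centred on pan-neuronal genes. In hypomorphic ganglia the count of 1 lower and 1 higher became 0 and 0 at 2-fold, 2 higher at 1.2-fold, and 2 higher (with *Pam*) after centring on pan-neuronal genes. That centring also turned the median of the group from -0.21 to 0.22 in CKO and from -0.061 to 0.21 in hypomorphic ganglia. Between stages, that centring gave 3 lower and 2 higher of 9, turned the median of the group from 0.93 to -0.15, and turned *Cpe* to -0.15, *Pcsk2* to -0.047 and *Pcsk1n* to -0.44. For processing enzymes in CKO ganglia, 3 were higher without erythroid genes. Centred on pan-neuronal genes, 1 was lower and 3 higher in hypomorphic ganglia, and 10 lower and 1 higher between stages, where centring on all genes gave 2 higher. For granule genes in CKO ganglia, 3 were higher without erythroid genes, and 6 lower and 10 higher centred on pan-neuronal genes. That centring gave 0 lower and 6 higher in hypomorphic ganglia, and 6 lower and 5 higher between stages, where centring on all genes gave 2 lower. For prohormones the pan-neuronal centring gave 1 lower in CKO ganglia, and 3 lower and 4 higher between stages, where centring on all genes gave 2 lower. The log2 ratio of *Pcsk1n* to *Pcsk1* (7.5 in wildtype and 7.16 in hypomorphic ganglia) became 6.74 and 6.50 with a pseudocount of 1. The cause was not tested in these cases, beyond the shift that each scaling makes by construction. Among single genes, 4 in CKO ganglia, 5 in hypomorphic ganglia and 5 between stages took either sign over the 4 scalings. The 3 lists were recounted under the 3 other scalings only, not under the other pseudocounts, filters or folds. The remaining counts that were computed stayed within 1.5 times those given. No paired analysis was possible because each table holds 1 value per genotype, which also prevented leaving out single libraries.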
